A study of Mus musculus with 26 samples.

Results

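The 10 genes described here are Nr4a1, Nr4a2, Nr4a3, Fos, Fosb, Jun, Junb, Egr1, Atf3 and Arc, a set of immediate early genes together with the Nr4a orphan nuclear receptors. They were taken by symbol from the authors' table of 14580 genes. All 10 were listed for both adult comparisons, and 9 for the P5 comparison, where Atf3 was not listed. The set was chosen by name with earlier results of these libraries in view, that is, selected on its ipRGC and cRGC levels in the same tables. For all 10 the ipRGC minus cRGC differences are therefore given as a description, with standard errors or intervals and without p values. Nr4a3 and Jun were also among the genes that the study itself named for the difference between its sorted pools.

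Immediate early genes are transcribed within minutes of a stimulus from transcription factors that are already present in the cell, such as CREB and SRF. In neurons they follow calcium entry and synaptic activity. In freshly dissociated tissue many of them also rise during enzymatic digestion and sorting. Their products are mostly transcription factors (Fos and Jun proteins pair as AP-1, and the Nr4a receptors bind DNA without a known natural ligand), while Arc acts at synapses.

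The study sorted intrinsically photosensitive retinal ganglion cells (ipRGCs, the melanopsin-expressing ganglion cells) and the remaining conventional ganglion cells (cRGCs) from dissociated mouse retinas and read their RNA by single-end RNA-seq of 50 bp. Retinas of several mice were pooled, digested with papain, enriched with Thy-1 magnetic beads and sorted for GFP, so that every library is a pool of mice and p values measure the spread between pools. At P5 (postnatal days 4 to 6) there were 3 ipRGC and 3 cRGC pools from Opn4-GFP mice. Adults (days 27 to 33) gave 6 ipRGC and 6 cRGC pools from Opn4-GFP mice and 4 ipRGC and 4 cRGC pools from Opn4-Cre/GFP mice. Opn4-GFP mice, labelled as BL6, carried 1 copy of a BAC transgene (Opn4-GFP+/-) that marks cells of the M1 to M3 types. Opn4-Cre/GFP mice, labelled as of mixed background, had the alleles Opn4-Cre+/- and Z/EG+/-, a Cre-dependent GFP reporter that marks M1 to M6 cells. The cRGC pools are the GFP-negative cells of the same mice, and carried the same alleles. Both reporters leave many ipRGCs without GFP, also among the types they mark, and these cells fell into the cRGC pools. The text of the study, unlike the labels, calls the background of both strains mixed.

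The libraries held 3927386 to 44871619 reads over listed genes. Opn4, the melanopsin gene, lay at 1986 to 3360 CPM in the P5 ipRGC pools, against 41.2 to 55.7 CPM in the P5 cRGC pools. In the adult pools its range was 820 to 9823 CPM in ipRGCs and 1.87 to 487 CPM in cRGCs. Markers of other retinal cells were high in the adult cRGC pools. The sum of 12 ganglion cell markers was 3704 to 8813 CPM in adult Opn4-GFP ipRGCs and 474 to 2972 CPM in their cRGCs, and the sum of 13 Müller glia markers was 768 to 1424 CPM in ipRGCs and 13318 to 25030 CPM in cRGCs. In Opn4-Cre/GFP adults the ganglion cell sums were 4243 to 7046 CPM in ipRGCs and 819 to 2640 CPM in cRGCs, and the Müller glia sums 855 to 1554 CPM and 10746 to 45835 CPM in the same order. At P5 the ganglion cell sums overlapped, at 6732 to 10229 CPM in ipRGCs and 8306 to 10393 CPM in cRGCs. Fewer cells of a type and less RNA per cell cannot be told apart in such pools.

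The upstream sequences of 4 members are shown because they span the outcomes below: Nr4a3 was higher in ipRGC pools, Jun and Fos had lower values there, and Nr4a1 is a receptor of the same family as Nr4a3. Each line is the 250 bases before the RefSeq start of the gene (GRCm38.p6, which is another build than the mm9 of the files), on the strand of the gene. Capitals mark the core of the cAMP response element, TGACG, on either strand (CGTCA on the strand shown). The windows are chr4:48045055-48045304 (plus) for Nr4a3, chr15:101266596-101266845 (plus) for Nr4a1, chr12:85473640-85473889 (plus) for Fos and chr4:95052223-95052472 (minus) for Jun.
Nr4a3: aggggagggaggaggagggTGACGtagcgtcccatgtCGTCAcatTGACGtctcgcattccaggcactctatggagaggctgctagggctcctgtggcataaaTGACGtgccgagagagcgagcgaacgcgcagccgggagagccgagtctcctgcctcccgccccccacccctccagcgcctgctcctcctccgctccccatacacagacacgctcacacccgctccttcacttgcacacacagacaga
Nr4a1: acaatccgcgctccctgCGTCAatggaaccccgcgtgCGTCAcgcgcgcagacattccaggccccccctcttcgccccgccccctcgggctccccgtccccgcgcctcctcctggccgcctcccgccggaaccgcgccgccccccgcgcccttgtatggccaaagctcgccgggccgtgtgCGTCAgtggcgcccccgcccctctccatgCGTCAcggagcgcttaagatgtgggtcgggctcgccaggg
Fos: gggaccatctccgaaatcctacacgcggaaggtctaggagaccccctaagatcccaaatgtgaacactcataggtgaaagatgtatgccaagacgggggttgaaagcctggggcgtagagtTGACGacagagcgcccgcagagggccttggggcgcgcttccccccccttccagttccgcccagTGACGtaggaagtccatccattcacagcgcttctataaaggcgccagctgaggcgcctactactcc
Jun: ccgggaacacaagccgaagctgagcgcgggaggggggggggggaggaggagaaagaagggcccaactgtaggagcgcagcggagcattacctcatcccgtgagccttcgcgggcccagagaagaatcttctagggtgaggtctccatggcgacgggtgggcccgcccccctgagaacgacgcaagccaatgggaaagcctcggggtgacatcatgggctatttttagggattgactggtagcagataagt

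RefSeq entries were at hand for 8 of the 10 members (all but Egr1 and Arc). This core was found in 7 of the 8 windows, and in 17.8% of the 32851 upstream windows of the same length. Nr4a1, Nr4a2 and Nr4a3 each held 4 copies, Fos 2, and Fosb, Junb and Atf3 1 each. In Nr4a3 they began 231, 213, 205 and 147 bases before the start, and in Fos 129 and 66 bases before it. Jun held none. The full element TGACGTCA, the AP-1 site TGACTCA, the CArG box bound by SRF and the Nr4a site AAAGGTCA were in none of the 8 windows (in 1.55%, 4.46%, 1.47% and 1.34% of all windows, searched on both strands). TGACG is part of TGACGTCA. A match describes the letters of the window and is no evidence of binding.

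**Figure D1:**
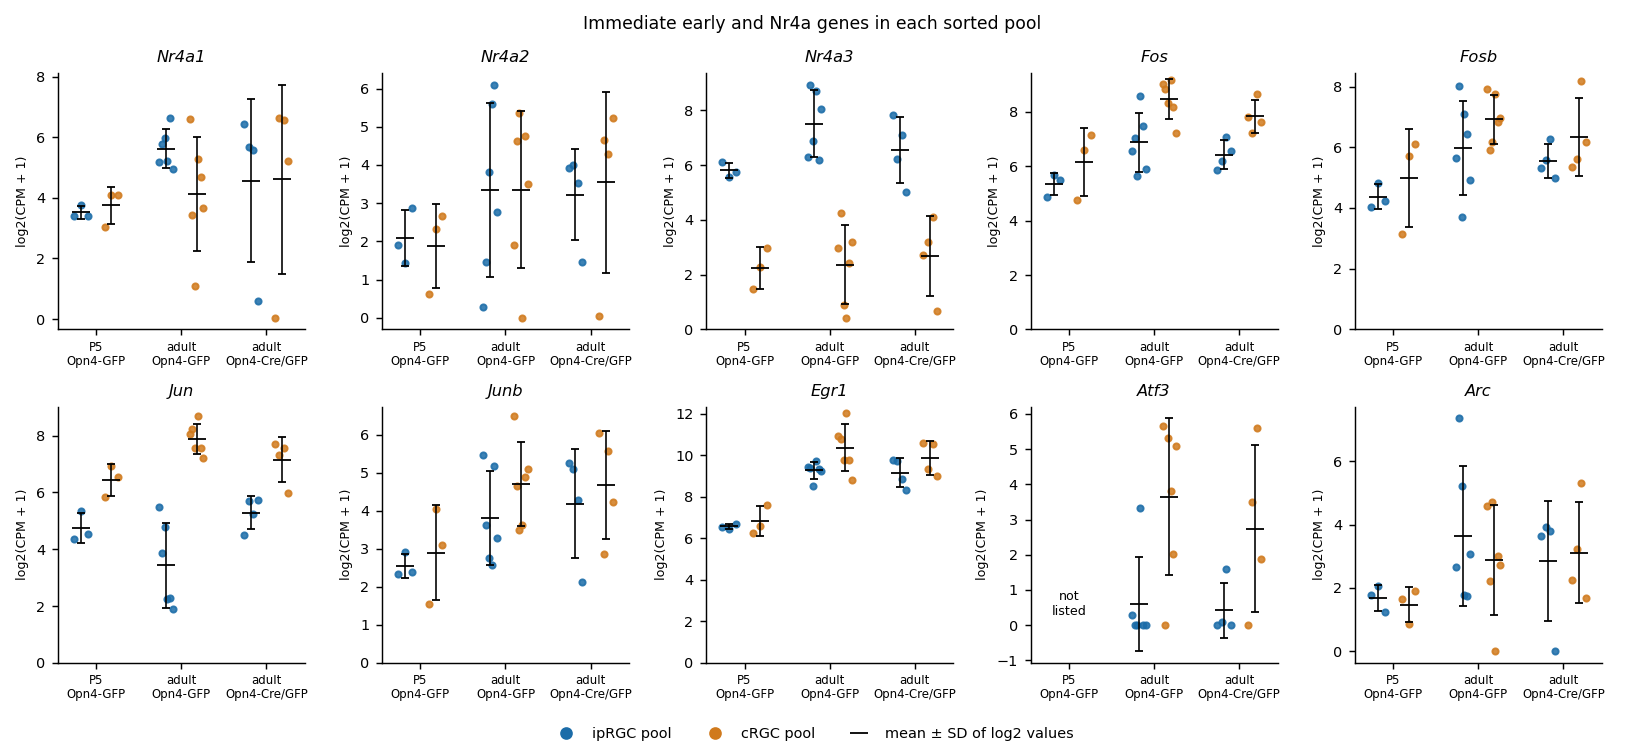
Level of each of the 10 genes in every pool, as log2(CPM + 1) on the vertical axis, by age and strain on the horizontal axis. Each point is 1 pool (blue ipRGC, orange cRGC) and the bars are mean and SD of the log2 values. Nr4a3 is the gene whose ipRGC points all lie above its cRGC points in the 3 comparisons, and Jun the gene for which they all lie below.

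Values are CPM, scaled by the authors within each comparison. A gene was called where limma on log2(CPM + 1) gave an adjusted p (Benjamini-Hochberg) below 0.05 and a log2 fold change beyond 1 in size, a scale that understates the change of low genes. By this rule 1 member was called higher and 1 lower in ipRGC pools in each comparison, of 9 members tested at P5 and 10 in each adult set. Of all genes, 1.93% were called higher and 2.27% lower at P5, 1.76% and 3.39% in Opn4-GFP adults, and 1.97% and 3.47% in Opn4-Cre/GFP adults. The called genes were Nr4a3 and Jun each time, but in Opn4-Cre/GFP adults both calls were lost when certain single libraries were left out. Since the members were chosen with this contrast known, nothing is read from these counts. The median log2 fold change of the members was -0.26 at P5, -0.93 in Opn4-GFP adults and -0.60 in Opn4-Cre/GFP adults, where the medians of all genes were 0.00, 0.06 and 0.03.

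Nr4a3 (ENSMUSG00000028341, chr4:48058025-48099319 of mm9, plus strand) encodes NOR1, an orphan receptor that activity and cAMP signalling induce in many cell types. At P5 it was at 67.7, 46.8 and 52.6 CPM in ipRGC pools, against 1.77, 3.89 and 6.83 CPM in cRGC pools. In Opn4-GFP adults the lowest, median and highest values were 71.3, 191 and 487 CPM in ipRGC pools and 0.343, 5.66 and 18.2 CPM in cRGC pools. Adult Opn4-Cre/GFP ipRGC pools held 228, 74.5, 137 and 31.3 CPM, against 5.59, 8.14, 16.4 and 0.592 CPM in cRGC pools. The groups did not overlap in any of the 3 comparisons, as was so, with ipRGCs higher, for 8.85%, 1.4% and 5.49% of all genes at P5, in Opn4-GFP adults and in Opn4-Cre/GFP adults. The log2 fold changes were 3.57 (SE 0.395), 5.14 (SE 0.819) and 3.87 (SE 0.823) in the same order. Within equal pool numbers Nr4a3 was higher in the ipRGC library in 13 of 13 pools, by 2.77 to 8.30 on the log2 scale. In Opn4-Cre/GFP adults the log2 fold change was 3.44 without ipRGC pool 1 and 3.69 without ipRGC pool 3, and Nr4a3 was called in neither fit.

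The spread of Nr4a3 within a group was wide in adults. The highest adult Opn4-GFP ipRGC pool held 6.83 times the lowest, and cRGC pool 4 of that set had 3 reads of Nr4a3. In the pools with 1 recorded sequencing run the mean ipRGC minus cRGC difference on the log2 scale was 4.31 for Nr4a3, -5.30 for Jun and -1.01 for Fos in Opn4-GFP adults (pools 5 and 6), and 4.34, -0.25 and -1.08 in the same order in Opn4-Cre/GFP adults (pool 4). In adults the ganglion cell marker sums were also higher in ipRGC pools (values above), and their part in the result was not tested.

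The other receptors of the family did not split the pools in this way. Nr4a1 (ENSMUSG00000023034, chr15:101097277-101105223 of mm9), which encodes Nur77, was at 9.63, 12.6 and 9.53 CPM in P5 ipRGC pools, against 7.26, 16.1 and 16.2 CPM in cRGC pools. In Opn4-GFP adults the lowest, median and highest were 29.7, 45.1 and 99.1 CPM in ipRGC pools and 1.11, 18.3 and 96.5 CPM in cRGC pools. The log2 fold change there was 1.497 (SE 0.840), and the groups overlapped. The Opn4-Cre/GFP adults held 85.7, 50.7, 46.6 and 0.512 CPM in ipRGCs, against 0.0291 (1 read), 97.9, 94.7 and 36.0 CPM in cRGCs, so that 1 pool on each side was nearly empty of Nr4a1.

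Nr4a2 (ENSMUSG00000026826, chr2:56959241-56976414 of mm9), the Nurr1 gene, known for its role in dopamine neurons, was low and uneven. Its P5 values were 2.77, 1.71 and 6.39 CPM in ipRGC pools, against 0.532, 4.00 and 5.34 CPM in cRGC pools. Adult Opn4-GFP ipRGC pools spanned 0.213 to 67.4 CPM (median 9.51), against 0 to 39.8 CPM (median 17.0) in cRGC pools. Adult Opn4-Cre/GFP had 14.1, 14.9, 10.47 and 1.74 CPM in ipRGC pools, against 0.0291 (1 read), 24.2, 18.4 and 36.6 CPM in cRGC pools. The 95% intervals of the log2 fold change, -1.0003 to 1.43 at P5, -2.40 to 2.37 in Opn4-GFP adults and -2.65 to 1.99 in Opn4-Cre/GFP adults, leave room for several-fold differences either way in adults.

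Rxra, Rxrb and Rxrg encode the retinoid X receptors, with which Nr4a1 and Nr4a2 form heterodimers. At P5 1 of the 3 fell, and in adults 0 of 2 (Rxrg was not listed) passed the test in Opn4-GFP mice and 0 of 3 in Opn4-Cre/GFP mice. Of all genes, 2.27% were called lower at P5, and 5.15% and 5.44% passed in Opn4-GFP and Opn4-Cre/GFP adults. These partners were also chosen with earlier results known, so their counts and p values are a description. Rxrg fell to 2.04 ± 0.955 CPM in P5 ipRGC pools, against 17.2 ± 3.36 CPM in cRGC pools (SD, n = 3 each), a log2 fold change of -2.62 (SE 0.426, adjusted p = 0.00115 in limma). In Opn4-Cre/GFP adults it stood the other way, at 1.46, 30.3, 1.26 and 22.9 CPM in ipRGC pools, against 0, 0.240, 0.152 and 0 CPM in cRGC pools. The groups did not overlap there, and the adjusted p was 0.0762 in limma. The study names Rxrg among the genes that differed in its Opn4-Cre/GFP adults but were weak or absent in Opn4-GFP.

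**Figure D2:**
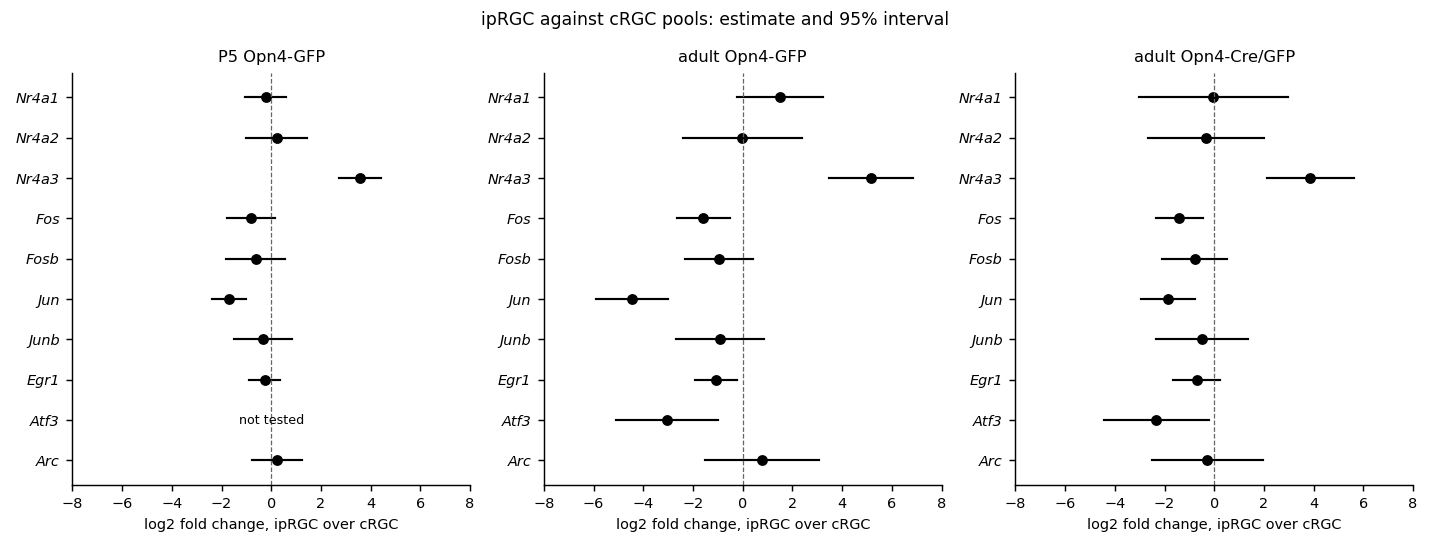
Estimated log2 fold change of each gene, ipRGC over cRGC (horizontal axis), with its 95% interval from limma, in each comparison. Nr4a3 stands at 3.57, 5.14 and 3.87 and Jun at -1.70, -4.45 and -1.85 from left to right.

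Jun (ENSMUSG00000052684, chr4:94715725-94718913 of mm9, minus strand), an AP-1 subunit that is also part of the injury response of ganglion cells, ran the other way. At P5 it was at 19.6, 39.6 and 22.1 CPM in ipRGC pools, against 56.2, 122 and 92.9 CPM in cRGC pools. The lowest, median and highest values in Opn4-GFP adults were 2.74, 8.80 and 43.5 CPM in ipRGC pools and 148, 227 and 410 CPM in cRGC pools. Adult Opn4-Cre/GFP ipRGC pools held 21.6, 50.6, 37.1 and 52.2 CPM, against 209, 157, 190 and 62.2 CPM in the cRGC pools. The groups were apart each time (with ipRGCs lower, 8.47%, 2.46% and 6.36% of all genes), and Jun was lower in the ipRGC library in 13 of 13 pools. The log2 fold changes were -1.70 (SE 0.325) at P5, -4.45 (SE 0.698) in Opn4-GFP adults and -1.85 (SE 0.515) in Opn4-Cre/GFP adults.

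Müller glia markers moved in the direction of Jun in adults, with all 13 lower in ipRGC pools in both strains, and their part in the result was not tested. At P5 the 8 listed Müller glia markers summed to 447 to 652 CPM in ipRGC pools and 393 to 400 CPM in cRGC pools, and their part was not tested there either. Amacrine cell markers (146 to 186 CPM in P5 ipRGC pools and 229 to 379 CPM in P5 cRGC pools) and astrocyte markers (1.78 to 3.89 and 7.43 to 68.7 CPM in the same order) moved with Jun there, and their part was not tested either. The start of BC042782, a transcript of the opposite strand, overlaps the start of the Jun gene model, and whether the counting used strand is not given in the sources used here. BC042782 was listed in the adult Opn4-Cre/GFP table alone, at 0.334 to 18.4 CPM in ipRGC pools and 0 to 4.65 CPM in cRGC pools.

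Junb, a Jun relative, was at 4.08, 6.55 and 4.30 CPM in P5 ipRGC pools, against 1.95, 15.6 and 7.58 CPM in cRGC pools. In Opn4-GFP adults it spanned 4.93 to 43.3 CPM (median 10.1) in ipRGC pools and 10.3 to 89.4 CPM (median 26.4) in cRGC pools. The adult Opn4-Cre/GFP ranges were 3.38 to 37.2 CPM and 6.34 to 64.8 CPM in the same order. Groups overlapped in all 3 comparisons, with log2 fold changes of -0.35 (SE 0.548), -0.90 (SE 0.859) and -0.49 (SE 0.868).

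Fos (ENSMUSG00000021250, chr12:86814840-86818223 of mm9, plus strand), the AP-1 subunit most used as a mark of recent activity, had lower values in most ipRGC pools. At P5 it was at 28.4, 50.1 and 44.0 CPM in ipRGC pools, against 26.04, 96.2 and 141 CPM in cRGC pools. Adult Opn4-GFP ipRGC pools had a lowest, median and highest value of 49.6, 113 and 387 CPM, against 147, 391 and 585 CPM in cRGC pools. Adult Opn4-Cre/GFP pools held 57.3, 72.8, 135 and 93.9 CPM in ipRGCs, against 222, 149, 408 and 199 CPM in cRGCs, with no overlap. Fos was lower in the ipRGC library in 12 of 13 pools. The log2 fold change was -0.82 (SE 0.450) at P5, -1.59 (SE 0.513) in Opn4-GFP adults and -1.41 (SE 0.440) in Opn4-Cre/GFP adults.

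Fosb, whose product also pairs with Jun proteins, was at 15.4, 27.4 and 17.8 CPM in P5 ipRGC pools, against 7.80, 51.3 and 67.7 CPM in cRGC pools. Its range in Opn4-GFP adults was 12.0 to 258 CPM (median 67.5) in ipRGC pools and 59.3 to 238 CPM (median 118) in cRGC pools. In Opn4-Cre/GFP adults it held 38.5, 47.2, 77.0 and 31.0 CPM in ipRGC pools, against 39.5, 47.5, 290 and 71.1 CPM in cRGC pools, where pool 3 stood far above the rest. The groups overlapped in each comparison, with log2 fold changes of -0.62 (SE 0.560), -0.95 (SE 0.664) and -0.78 (SE 0.617).

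Egr1, a zinc finger factor on chromosome 18 that synaptic activity induces, was the most abundant member per kb of exon in each of the 6 groups. At P5 it was at 92.9, 87.5 and 102 CPM in ipRGC pools, against 75.5, 96.3 and 195 CPM in cRGC pools. The lowest, median and highest values in Opn4-GFP adults were 362, 661 and 845 CPM in ipRGC pools and 452, 1325 and 4199 CPM in cRGC pools. Adult Opn4-Cre/GFP held 856, 842, 459 and 316 CPM in ipRGC pools, against 1538, 635, 1471 and 516 CPM in cRGC pools. Groups overlapped in all 3, and the log2 fold change in Opn4-GFP adults was -1.08 (SE 0.414). Gm17507, a gene of the opposite strand that overlaps Egr1, was not listed.

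Atf3, a stress-induced factor that marks injured neurons, was at or near 0 in most ipRGC pools. In Opn4-GFP adults, 4 of the 6 ipRGC libraries held no read of it (3 reads would be 0.145 to 0.642 CPM in them) and the others 0.213 and 9.05 CPM. The cRGC pools of that strain ranged from 0 to 49.4 CPM (median 22.9). In Opn4-Cre/GFP adults the values were 0, 0.0626, 2.003 and 0 CPM in ipRGC pools, against 0, 10.3, 47.4 and 2.67 CPM in cRGC pools. At least 1 cRGC library of each strain had no read either, so the groups overlapped. The log2 fold change was -3.04 (SE 0.992) in Opn4-GFP adults and -2.33 (SE 0.987) in Opn4-Cre/GFP adults, fitted values that depend on the pseudocount for a gene with so many zeros.

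Arc, a synaptic protein whose messenger is carried into dendrites, varied widely between pools. Its P5 values were 2.41, 3.13 and 1.36 CPM in ipRGC pools, against 2.13, 0.801 and 2.78 CPM in cRGC pools. In adult Opn4-GFP ipRGC pools it ranged from 2.35 to 163 CPM around a median of 6.39, against 0 to 25.1 CPM around 6.34 in cRGC pools. Adult Opn4-Cre/GFP pools held 11.4, 14.1, 13.02 and 0 CPM in ipRGCs, against 3.78, 8.31, 38.4 and 2.22 CPM in cRGCs. Arc was higher in the ipRGC library in 8 of 13 pools, and the groups overlapped in every comparison.

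Per kb of union exon, the order of the members differed between the sorted cells. Egr1 led every group, at 30.4 ± 2.35, 205 ± 50.503 and 199 ± 88.1 CPM per kb in the ipRGC pools of P5, of Opn4-GFP adults and of Opn4-Cre/GFP adults, and at 39.4 ± 20.6, 545 ± 439 and 335 ± 174 CPM per kb in the cRGC pools (SD, n = 3, 6 and 4). Fos came next in all 6. Nr4a3 ranked 3 by mean in each ipRGC group (9.30, 40.0 and 19.6 CPM per kb), where its range overlapped the gene ranked next. In the cRGC groups it was 8 of 9 at P5 (0.696 CPM per kb) and 10 of 10 in both adult sets (1.08 and 1.28 CPM per kb), below Jun, which ranked 3 (28.3, 78.3 and 48.4 CPM per kb). Most neighbours in these orders overlapped, among them Egr1 and Fos in every group but the P5 and adult Opn4-Cre/GFP ipRGC pools.

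Whether Nr4a3 moved with the other members from pool to pool was asked in the adult Opn4-GFP pools, the set with 6 libraries a group. Activity genes outside the members were not part of these tests. Pearson r between log2 levels of Nr4a3 and each other member was computed within the 6 ipRGC and within the 6 cRGC libraries. This gave 18 relations. Each had an exact two-sided permutation test, whose smallest p by Spearman is 0.00278 where no values are tied. None had an unadjusted p below 0.05, by Pearson or by Spearman, and no Benjamini-Hochberg adjusted p was under 0.785. Among ipRGC pools r ran from -0.70 (Junb) to 0.52 (Fosb), with 5 of 9 positive, and among cRGC pools from -0.45 (Atf3) to 0.66 (Junb), with 4 of 9 positive. For Fos in ipRGC pools r was 0.32 (exact permutation p = 0.522, adjusted p = 0.785, rho 0.14, p = 0.803), and 0.61 without the pools farthest from the median of Nr4a3, pools 2 and 5. For Fos in cRGC pools r was -0.22 (exact permutation p = 0.688, adjusted p = 0.800, rho -0.37, p = 0.497), and 0.28 without pools 3 and 4. Without the TMM scaling r for Fos in ipRGC pools turned to -0.09 and for Egr1 there to -0.38, against 0.37 with it. With 6 libraries and 18 relations, no single relation of any strength could pass on its own by Spearman after adjustment. By Pearson only a strong one could. Atf3 in ipRGC pools, with 4 of 6 libraries at 0, could pass on its own by neither. No conclusion is therefore drawn on whether Nr4a3 moves with the other members.

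**Figure D3:**
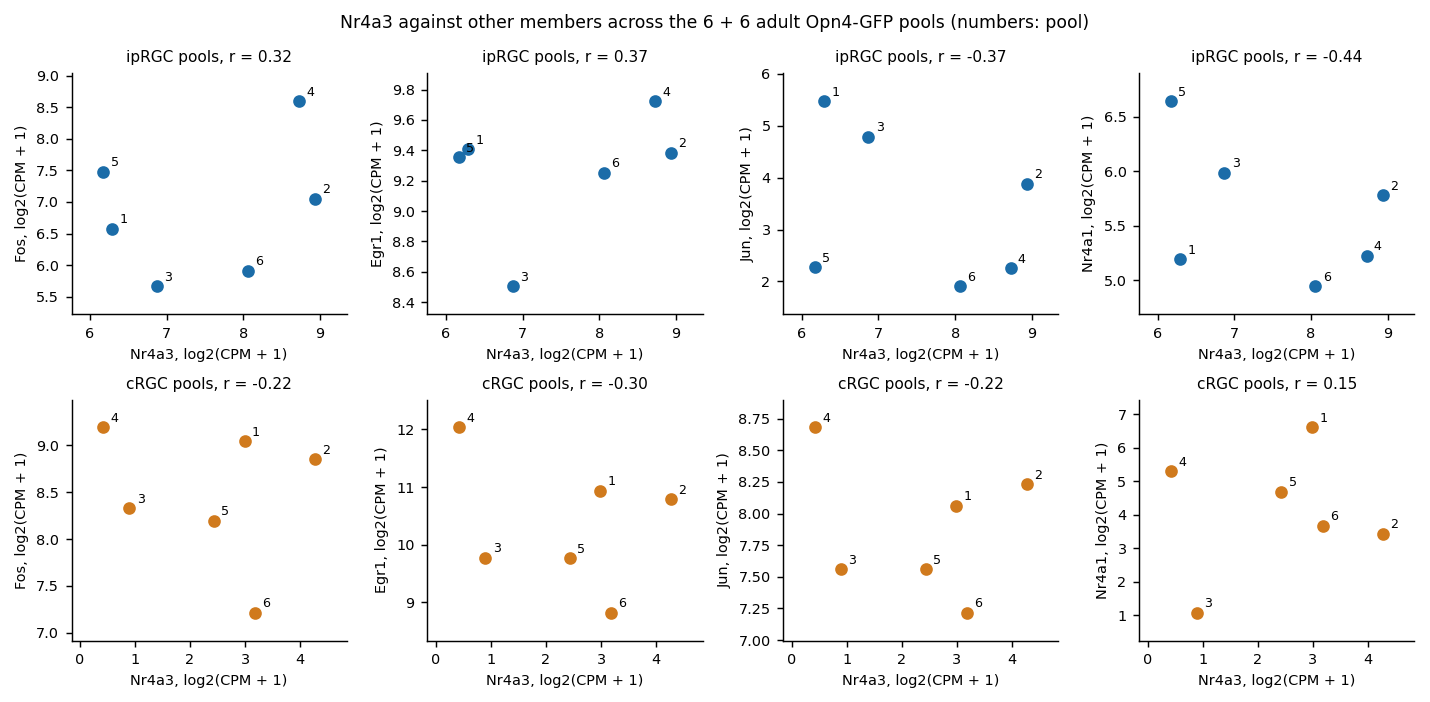
Nr4a3 (horizontal axis) against Fos, Egr1, Jun and Nr4a1 (vertical axes), all as log2(CPM + 1), in the 6 ipRGC (top) and 6 cRGC (bottom) pools of adult Opn4-GFP mice. Numbers name the pool, and r is Pearson's. In cRGC pools the pool with the most Fos, Egr1 and Jun (pool 4, at 585, 4199 and 410 CPM) had the least Nr4a3, 0.343 CPM. It also had the most listed genes at 0 of any library (2530 of 11587).

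Single pools show how the members ran. Pool 4 of the adult Opn4-GFP cRGCs had the highest Fos, Egr1 and Jun of the 6, at 585, 4199 and 410 CPM, and the lowest Nr4a3, from 3 reads. That library had 2530 of 11587 listed genes at 0, the most of any library. TMM scaling set its 13192140 listed reads to a size of 8736706, which raises its CPM values. Pool 6 had the lowest Fos, Egr1 and Jun, at 147, 452 and 148 CPM, and the second highest Nr4a3, at 8.05 CPM. In the ipRGC pools, pool 2 had the most Nr4a3 (487 CPM), Fosb (258 CPM) and Arc (163 CPM), while the most Fos (387 CPM) and Egr1 (845 CPM) were in pool 4, where Nr4a3 was at 422 CPM. Pool 3 had the least Fos (49.6 CPM), Fosb (12.0 CPM) and Egr1 (362 CPM) and 116 CPM of Nr4a3. These pools were picked after their values were seen.

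Nr4a3 was also compared with all genes. With the mean of each of the 4 adult groups removed, Pearson r with Nr4a3 over the 20 adult libraries was ranked for 10490 genes, as a description, since the libraries share depth and scaling. The 5 highest were Epha3, an ephrin receptor (r 0.86), Gm6158 (0.83), Srfbp1, named for its binding of SRF (0.80), Ica1l (0.78) and Pdcd11 (0.78), all of them low to moderate in level, and none a member. Of the members Arc came first (r 0.48, rank 639), followed by Nr4a1 (0.25, rank 2559), Fosb (0.24, rank 2651), Junb (0.20, rank 3064), Nr4a2 (0.13, rank 4011), Egr1 (0.11, rank 4305), Fos (0.05, rank 4994) and Jun (-0.15, rank 7570). The median over all genes was 0.03 and the 95th percentile 0.50, which no member reached.

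Other immediate early genes, late response genes and genes of heat shock and dissociation were looked at as lists. All the lists were chosen with earlier results of these data known. The called genes named from them are those with the smallest adjusted p. Counts and p values here and in the list paragraphs that follow are therefore a description, not independent support. Of the other immediate early genes, 0 rose and 1 of 24 fell in P5 ipRGC pools, 0 rose and 3 of 20 fell in Opn4-GFP adults, and 0 rose and 4 of 26 fell in Opn4-Cre/GFP adults. Of all genes, 2.27%, 3.39% and 3.47% were called lower in the same order, so that 1 of 24 at P5 is near the share of all genes. Dusp5, a phosphatase of ERK, fell at P5 to 0.887 ± 0.419 CPM in ipRGC pools, against 5.02 ± 1.13 CPM in cRGC pools (SD, n = 3 each). Cyr61, a secreted matrix protein, fell in adults. It was at 1.40 ± 2.79 CPM in adult Opn4-GFP ipRGC pools, against 315 ± 195 CPM in cRGC pools (SD, n = 6 each), a log2 fold change of -7.31 (SE 0.818, adjusted p = 1.84e-06 in limma). Zfp36, which speeds the decay of inflammatory messengers, fell to 3.53 ± 3.73 CPM in those ipRGC pools, against 361 ± 230 CPM in cRGC pools (log2 fold change -6.68, SE 0.794, adjusted p = 4.64e-06 in limma). Cyr61 in Opn4-Cre/GFP adults was at 2.49 ± 2.79 CPM in ipRGC pools, against 228 ± 110 CPM in cRGC pools, and Zfp36 at 7.19 ± 3.52 CPM, against 162 ± 123 CPM (SD, n = 4 each). Of 6 vascular markers, 2 were listed in Opn4-GFP adults, and the others were not among the genes that passed the filter at 1 CPM. They summed to 0.314 to 35.5 CPM in ipRGC pools and 678 to 1612 CPM in cRGC pools. The study describes vascular markers as nearly absent from its cRGC samples. A sum over only the markers that passed the filter does not test that statement. These 2 markers moved with Cyr61 and Zfp36 as the Müller glia markers did. Their part in the result was not tested.

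The neuronal late response genes follow the immediate early ones. In Opn4-GFP adults 3 of 12 rose and 0 fell, in Opn4-Cre/GFP adults 3 of 15 rose and 1 fell, and at P5 1 of 13 rose and 1 fell. Of all genes, 1.76%, 1.97% and 1.93% were called higher in the same order. Ganglion cell markers moved with these genes in adults, with 8 of 12 called higher in Opn4-GFP and 10 of 12 in Opn4-Cre/GFP ipRGC pools (0 of 12 at P5), and their part in the result was not tested. Scg2, a secretory granule protein, was at 1027 ± 350 CPM in adult Opn4-GFP ipRGC pools, against 306 ± 118 CPM in cRGC pools, a log2 fold change of 1.77 (SE 0.375, adjusted p = 0.00378), and at 331 ± 12.7 CPM in P5 ipRGC pools, against 113 ± 9.21 CPM in cRGC pools (log2 fold change 1.55, SE 0.197, adjusted p = 0.000115). In Opn4-Cre/GFP adults its 1.34 (SE 0.391) had an adjusted p of 0.062. Nrn1, the neurite growth factor neuritin, rose to 250 ± 73.4 CPM in adult Opn4-GFP ipRGC pools, against 63.0 ± 97.8 CPM in cRGC pools, and to 318 ± 89.3 CPM in adult Opn4-Cre/GFP ipRGC pools, against 47.1 ± 49.8 CPM in cRGC pools. At P5 it was 207 ± 46.0 CPM in ipRGC pools and 212 ± 8.78 CPM in cRGC pools. Nptx1, a synaptic pentraxin, rose in Opn4-Cre/GFP adults (log2 fold change 2.08, SE 0.404, adjusted p = 0.0058). In Opn4-GFP adults its log2 fold change was 0.54 (SE 0.543, adjusted p = 0.703). At P5 it had 82.1 to 101 CPM in ipRGC pools, against 154 to 172 CPM in cRGC pools (log2 fold change -0.87, SE 0.207, adjusted p = 0.0208), which was within the 2-fold limit of the call. Its relative Nptx2 fell at P5 to 5.34 ± 2.56 CPM in ipRGC pools, against 25.3 ± 9.09 CPM in cRGC pools, and Arl4d, a small GTPase, fell in Opn4-Cre/GFP adults (log2 fold change -3.38, SE 0.798, adjusted p = 0.0201).

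Of the heat shock and dissociation genes, 1 of 20 fell at P5, 2 of 22 in Opn4-GFP adults and 3 of 22 in Opn4-Cre/GFP adults, and none rose (2.27%, 3.39% and 3.47% of all genes were called lower). In Opn4-GFP adults these were Cebpd, an acute phase transcription factor (0.00806 ± 0.0197 CPM in ipRGC pools, against 30.1 ± 20.6 CPM in cRGC pools), and the metallothionein Mt2 (2.17 ± 2.67 CPM, against 88.7 ± 90.1 CPM), genes that are also used by glia. At P5 it was Bag3, a partner of heat shock proteins, at 0.197 ± 0.190 CPM in ipRGC pools, against 2.84 ± 0.622 CPM in cRGC pools. Hsp90ab1, the most abundant uncalled gene of the list, was at 1158 ± 353 CPM in adult Opn4-GFP ipRGC pools and 868 ± 401 CPM in cRGC pools (adjusted p = 0.515).

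None of the AP-1 and ATF partners tested passed the rule (8 at P5, 6 in Opn4-GFP adults and 8 in Opn4-Cre/GFP adults). Of all genes, 4.2%, 5.15% and 5.44% were called in either direction in the same order. Fosl2, a Fos relative, spanned 40.9 to 2066 CPM in adult Opn4-GFP ipRGC pools and 42.3 to 377 CPM in cRGC pools (adjusted p = 0.426). Its highest ipRGC values were in pools 4 (2066 CPM) and 2 (865 CPM), where Nr4a3 was at 422 and 487 CPM. In cRGC pool 4 Fosl2 was highest (377 CPM) and Nr4a3 lowest (0.343 CPM). Dusp1, another immediate early gene, was also highest in these pools (1067, 365 and 575 CPM in the same order). These pools were picked after their values were seen, and the relation of either gene with Nr4a3 was not tested. Among 17 upstream regulators none passed in adults, and 2 did at P5, where 4.2% of all genes were called. Camk4, a calcium-activated kinase of CREB, fell to 114 ± 8.96 CPM in P5 ipRGC pools, against 579 ± 51.1 CPM in cRGC pools (log2 fold change -2.34, SE 0.196, adjusted p = 1.82e-06), and Rps6ka3, the kinase RSK2, rose to 205 ± 3.69 CPM in ipRGC pools, against 91.7 ± 15.1 CPM in cRGC pools (log2 fold change 1.16, SE 0.209, adjusted p = 0.00273, SD with n = 3 each).

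**Figure D4:**
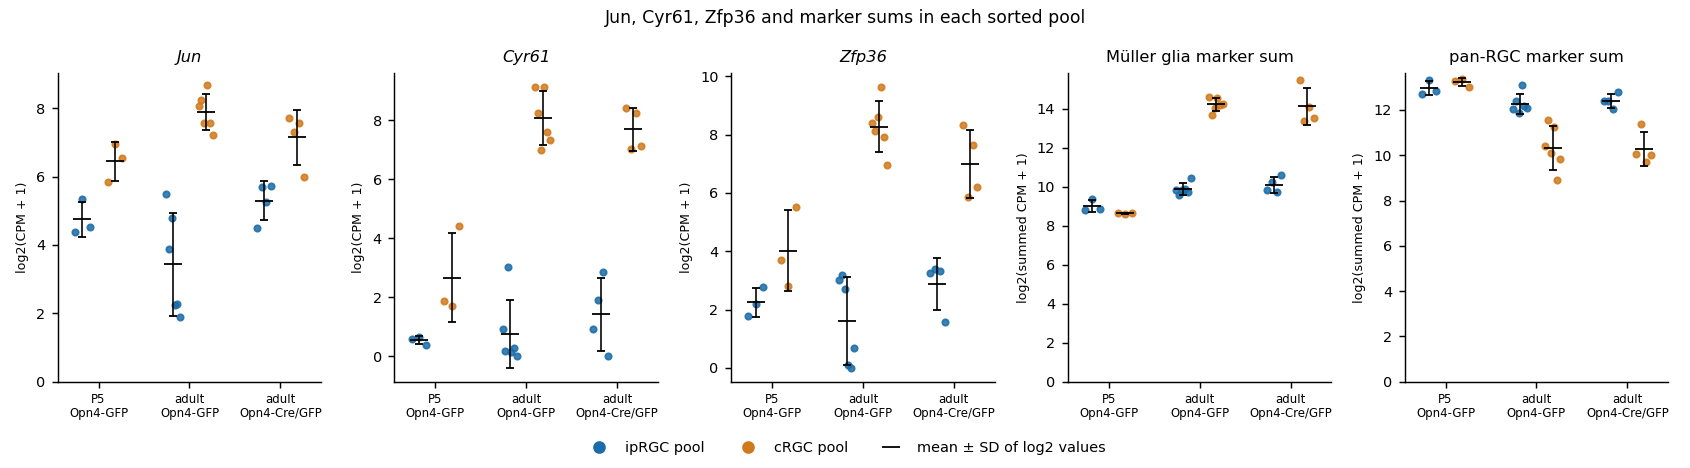
Jun, Cyr61 and Zfp36 as log2(CPM + 1), and the summed CPM of Müller glia and ganglion cell markers as log2(sum + 1), in every pool (blue ipRGC, orange cRGC, bars mean and SD of the log2 values). In adults the Müller glia sums of cRGC pools (13318 to 25030 CPM in Opn4-GFP) lie above those of ipRGC pools (768 to 1424 CPM), whereas at P5 the order is reversed (447 to 652 CPM in ipRGC pools, 393 to 400 CPM in cRGC pools).

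The ages were compared in Opn4-GFP mice on values rescaled jointly over the 11150 genes listed for all comparisons, without Atf3. The members were chosen with earlier results of these data known, so their counts and p values by age and by strain are a description. In adult ipRGC pools 1 of 9 members rose and 0 fell relative to P5, where 1.25% of all genes rose and 0.664% fell. Egr1 rose to 658 ± 144 CPM in adult ipRGC pools, against 91.9 ± 6.68 CPM in P5 ipRGC pools (SD, n = 6 and 3; log2 fold change 2.79, SE 0.307, adjusted p = 0.000165 in limma), and was higher in every adult pool than in every P5 pool. Nr4a1 was at 55.0 ± 26.6 CPM in adult and 10.4 ± 1.68 CPM in P5 ipRGC pools (adjusted p = 0.102), Nr4a3 at 243 ± 174 and 54.5 ± 11.4 CPM (adjusted p = 0.171), and Fos at 151 ± 118 and 39.8 ± 10.48 CPM (adjusted p = 0.218). These 3 were also higher in every adult than in every P5 pool (4.55% of all genes were), but missed the threshold. Jun was the member with an estimate below 0 (log2 fold change -1.23, SE 0.971, adjusted p = 0.685).

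In adult cRGC pools 2 of 9 members rose and 0 fell, where 2.84% of all genes rose and 1.78% fell. Egr1 rose to 1752 ± 1345 CPM in adult cRGC pools, against 120 ± 63.3 CPM in P5 cRGC pools (log2 fold change 3.64, SE 0.556, adjusted p = 0.000564), and Fos to 408 ± 164 CPM, against 86.2 ± 57.3 CPM (2.41 on the log2 scale, SE 0.575, adjusted p = 0.0203; SD, n = 6 and 3). The Fos call was lost without P5 cRGC pool 1 (log2 fold change 1.71, adjusted p = 0.210) or P5 cRGC pool 2 (2.62, adjusted p = 0.0518), and in edgeR (adjusted p = 0.112). Jun was at 262 ± 90.3 CPM in adult and 88.4 ± 31.7 CPM in P5 cRGC pools, without overlap (adjusted p = 0.0874), and 3 members in all were higher in every adult pool (6.13% of all genes). Nr4a3 was at 6.77 ± 6.51 CPM in adult and 4.09 ± 2.51 CPM in P5 cRGC pools, with overlapping values. The Müller glia sums of the adult cRGC pools, over 13 listed markers, were far above those of the P5 pools (393 to 400 CPM, over 8). These sums were scaled separately at each age, and moved with Egr1 and Fos. Their part in the result was not tested. In ipRGC pools, where Egr1 rose too, the sums were 768 to 1424 CPM in adults, over 13 listed markers, and 447 to 652 CPM at P5, over 8.

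**Figure D5:**
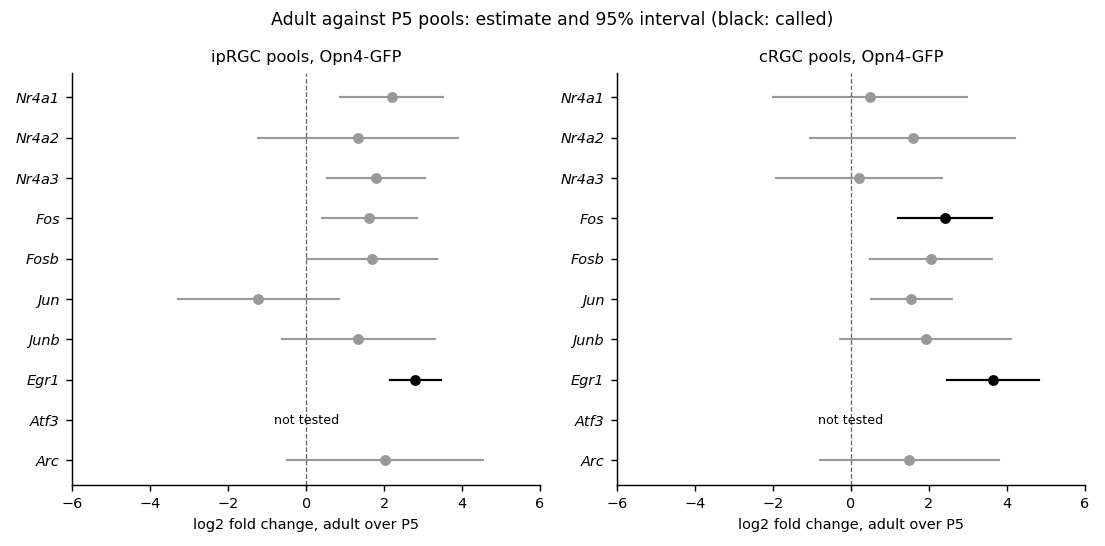
Log2 fold change of each gene, adult over P5 (horizontal axis), with its 95% interval from limma, in ipRGC (left) and cRGC (right) pools of Opn4-GFP mice. Black marks genes past the call rule. Egr1 stands at 2.79 and 3.64, and Fos is called in the cRGC pools, where it stands at 2.41.

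The interaction of cell type and age was past an adjusted p of 0.05 for 0 of 9 members in limma (0.816% of all genes), and for 0 in edgeR. For Fos it was -0.79 (SE 0.857) and for Egr1 -0.85 (SE 0.677), so that the rise with age was not shown to differ between cRGC and ipRGC pools. At an unadjusted p below 0.05 (6.11% of all genes) there was 1 member, Jun, with an estimate of -2.78 (SE 1.05). The choice of members used the ipRGC minus cRGC differences, so this count and estimate are a description.

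The strains were compared in adults. In Opn4-Cre/GFP against Opn4-GFP, 0 of 9 members passed in ipRGC pools and 0 of 9 in cRGC pools, where 0% and 0.00897% of all genes were called, and none had an unadjusted p below 0.05 in limma (3.88% and 3.2% of all genes had) or a call in edgeR. Nr4a3 was at 114 ± 82.7 CPM in Opn4-Cre/GFP and 243 ± 174 CPM in Opn4-GFP ipRGC pools (SD, n = 4 and 6), a log2 fold change of -1.06 with a 95% interval from -2.31 to 0.20. Jun was at 39.3 ± 14.2 CPM in Opn4-Cre/GFP and 17.0 ± 18.5 CPM in Opn4-GFP ipRGC pools (1.77, interval -0.04 to 3.58). The interaction of cell type and strain passed for 0 of 9 members (0% of all genes), and in edgeR for 0. Jun was again the 1 member with an unadjusted p below 0.05 in limma (2.43% of all genes), at 2.60 (SE 0.960), given as a description for the same reason.

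Over the 6 groups, on the joint scale, the mean of Nr4a3 ranked from highest to lowest in the order adult Opn4-GFP ipRGC (243 CPM), adult Opn4-Cre/GFP ipRGC (114 CPM), P5 ipRGC (54.5 CPM), adult Opn4-Cre/GFP cRGC (7.60 CPM), adult Opn4-GFP cRGC (6.77 CPM) and P5 cRGC (4.09 CPM). Each group overlapped its neighbour except at the step between the ipRGC and the cRGC groups. Jun had the reverse split, with adult Opn4-GFP cRGC (262 CPM), adult Opn4-Cre/GFP cRGC (154 CPM) and P5 cRGC (88.4 CPM) above the ipRGC groups (39.3, 26.4 and 17.0 CPM in Opn4-Cre/GFP adults, P5 and Opn4-GFP adults). Egr1 was split by age instead, with the 4 adult groups at 599 to 1752 CPM and the P5 groups at 120 and 91.9 CPM. The other 6 members with joint values (Fos, Fosb, Junb, Arc, Nr4a1 and Nr4a2) had no such step, since each group overlapped the next.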

How the data were processed

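After clipping and quality filtering, the authors mapped the reads on mm9 (TopHat2), counted gene reads (htseq-count) and scaled the totals (edgeR), in versions not given in the sources used here. Deposited signal values are CPM of the library size after TMM scaling by the authors, made anew in each of the 3 tables from genes that had passed a filter at 1 CPM. They divide back into whole reads for 100% of values, within 0.01. The deposited log2 fold changes, p-values and score columns of the authors' own comparisons were not used.

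Within a comparison, limma 3.58.1 (trend) was run on log2(CPM + 1) over all listed genes in R 4.3.3. A gene was called at an adjusted p (Benjamini-Hochberg) below 0.05 with a log2 fold change beyond 1 in size, and an interaction at an adjusted p below 0.05. Every adjusted p is from limma unless another tool is named. Comparisons across ages or strains used the recovered reads with 1 TMM scaling over 26 libraries. Counting whole reads, edgeR 4.0.16 and DESeq2 1.42.0 were run as alternatives, with other pseudocounts (0.25 and 5), a filter at a mean of 5 CPM, no TMM scaling, a replicate block and single libraries left out. The edgeR and DESeq2 tests need counts, whereas the deposited values are scaled, so limma stayed the main test. The fits were tested on simulated data.

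The study split ipRGC and cRGC pools of one number from one collection of cells, and equal numbers in the labels are assumed to mark these pairs. Deviations from the group means had a mean within-pair r of 0.212 (P5), 0.0582 (Opn4-GFP adults) and 0.123 (Opn4-Cre/GFP adults). The best partner was the same-numbered library for 6 of 6, 7 of 12 and 8 of 8 libraries.

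The members and all gene and marker lists were chosen with earlier results of these data known. Named are all members, Opn4, the called genes with the smallest adjusted p (up to 2 a direction) and the most abundant uncalled gene of the activity lists, not all of which are printed, and the 5 genes with the highest r with Nr4a3. Gene positions are from the mm9 annotation, and upstream sequences from RefSeq (GRCm38.p6). Marker sums add the deposited CPM of the listed markers, with the TMM scaling of the authors. Figures were drawn with matplotlib 3.10.9.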

Additional observations from a re-analysis of the deposited data

Results flagged for a closer look

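In groups of 4 or 6 pools, the highest or lowest pool was set against the others by Dixon's ratio for the 10 genes, Opn4 and the marker sums. Of 56 groups, 9 held such a pool. A chance rate of about 1 in 20 holds for normal values, whereas the ratio was taken on unlogged CPM, with zeros in places. No excess is therefore read from this count. Arc stood at 162.7 CPM in ipRGC pool 2 of adult Opn4-GFP, where the next pool had 36.0 CPM. Arc also stood at 38.4 CPM in cRGC pool 3 of adult Opn4-Cre/GFP (next 8.31 CPM), and Fosb in the same pool at 290.0 CPM (next 71.1 CPM). Atf3 was at 9.05 CPM in ipRGC pool 4 of adult Opn4-GFP (next 0.213 CPM) and at 2.003 CPM in pool 3 of the Opn4-Cre/GFP adult ipRGCs (next 0.0626 CPM). Junb was at 89.4 CPM in cRGC pool 1 of adult Opn4-GFP (next 33.5 CPM). Opn4 was at 487 CPM in cRGC pool 4 of adult Opn4-GFP (next 170.2 CPM), the pool with the most Fos, Egr1 and Jun. The Müller glia marker sum was 1424 CPM in ipRGC pool 6 of adult Opn4-GFP (next 962 CPM), and the rod marker sum 299 CPM in pool 4 of the Opn4-Cre/GFP adult ipRGCs (next 8.14 CPM).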

How the results depend on the processing

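No member changed direction with a call under any alternative tried. In adult Opn4-Cre/GFP the members called fell to 1 of 10 with a pseudocount of 0.25, in edgeR, without TMM scaling and with the replicate block, since Jun was lost, and were 3 in DESeq2, with Fos. With the replicate block the counts were 2 at P5, 3 in adult Opn4-GFP and 0 for both interactions, and the block changed no other call than those of Jun and Fos. In adult against P5 cRGC pools edgeR called 1 member. In adult Opn4-Cre/GFP, leaving out a single library cost Jun its call in each case but that of cRGC pool 4. Nr4a3 lost its call there without ipRGC pool 1 or ipRGC pool 3. With each replicate left out in turn the count ran from 2 to 4 at P5 (Fos and Fosb were gained without cRGC pool 1), 2 to 4 in adult Opn4-GFP (4 without cRGC pool 6 or ipRGC pool 4), 0 to 2 in adult Opn4-Cre/GFP, 1 to 2 in adult against P5 ipRGC pools (Nr4a1 gained without adult pool 4), 1 to 2 in cRGC pools, and 0 to 0 for the strains and interactions. Over all genes, edgeR called 304 in adult Opn4-GFP (597 in limma), 430 in adult Opn4-Cre/GFP (727; 1156 in DESeq2), 103 against 213 by age in ipRGC pools, 290 against 515 in cRGC pools and 35 against 91 for the interaction with age. Leaving out 1 library moved these counts further, to 48 without P5 ipRGC pool 3 and 346 without adult ipRGC pool 4 by age in ipRGC pools, to 242 without P5 cRGC pool 1 in cRGC pools (720 without adult pool 4), to 29 without P5 cRGC pool 2 for the interaction (124 without adult cRGC pool 4), and to 419 without ipRGC pool 1 in adult Opn4-Cre/GFP. Without the libraries of 1 recorded run limma called 201 in adult Opn4-GFP. For the strains the counts over all genes were 0 in ipRGC pools (1 with DESeq2 size factors and with a pseudocount of 5) and 1 in cRGC pools (0 in edgeR). The causes of these shifts were not tested. Counting error weighs most on members with few reads. In 3 libraries 3 members had at most 5 reads, namely cRGC pool 4 of adult Opn4-GFP mice, and ipRGC pool 4 and cRGC pool 1 of adult Opn4-Cre/GFP mice. The last held 37168515 reads, whereas the smallest library (3927386 reads, cRGC pool 5 of adult Opn4-GFP) had none.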
